A study of Mus musculus with 18 samples.

Results

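A set of genes of leukocyte adhesion to blood vessels were followed through the colon of mice with and without chemically induced colitis. They were taken by symbol from a table of TPM (transcript abundance per length and library total) and are the vessel selectins Sele and Selp, the selectin ligand Selplg, the vessel receptors Icam1, Vcam1 and Madcam1, and the integrin subunits Itga4 and Itgb7, which makes 8 of 35976 gene rows. The study collected about 100 mg of mouse colon per sample on day 2 and sequenced RNA from 18 samples in 3 groups of 6. Sham mice were not given colitis. The vehicle group had colitis induced with TNBS, a hapten given to provoke acute intestinal inflammation, and received vehicle. The ISM012-042 group had TNBS colitis and received ISM012-042, called in the series title an inhibitor of PHD that acts only in the gut (PHD enzymes are oxygen sensors that tag hypoxia-inducible factors for breakdown). The assignment of TNBS to both treated groups comes from the design text, and the sources used here give no strain, sex, age, dose or route. Nothing in the labels says that replicates came from separate animals, so p-values reflect only how these samples varied, which may be technical.

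Leukocytes leave the blood in steps. Selectins on the vessel wall catch and roll them by binding sugar-bearing ligands such as PSGL-1, the product of Selplg, and firm arrest follows when leukocyte integrins bind ICAM-1, VCAM-1 or MAdCAM-1 on the endothelium. Inflammatory cytokines acting through NF-kB are known to raise Sele, Icam1 and Vcam1, whereas P-selectin is also stored in granules of endothelium and platelets, and MAdCAM-1 marks venules of the gut wall and its lymphoid tissue, where it binds the integrin built from the Itga4 and Itgb7 chains.

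The promoters of the vessel genes are shown because these genes moved together in some libraries and apart in others (values follow). Of the 8 genes, 6 had an entry in the promoter table used, made from RefSeq on GRCm38.p6, the assembly of mm10. Each line gives the 250 bases before the transcript start used in that table, plus strand, 5′ to 3′, and capitals mark matches to the motifs searched on both strands: a longer NF-kB form (GGG, any 2 bases, TT, any base, CC), the shorter NF-kB form GGAAATTCC, and the TATA box TATAAA. The windows are chr1:164047984-164048233 for Sele, chr1:164115014-164115263 for Selp, chr9:21015690-21015939 for Icam1 and chr10:79664309-79664558 for Madcam1.
Sele: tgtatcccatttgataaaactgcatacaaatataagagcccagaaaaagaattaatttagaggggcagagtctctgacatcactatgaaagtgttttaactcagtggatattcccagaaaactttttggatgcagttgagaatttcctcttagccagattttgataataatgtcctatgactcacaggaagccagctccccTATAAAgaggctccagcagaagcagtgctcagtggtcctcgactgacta
Selp: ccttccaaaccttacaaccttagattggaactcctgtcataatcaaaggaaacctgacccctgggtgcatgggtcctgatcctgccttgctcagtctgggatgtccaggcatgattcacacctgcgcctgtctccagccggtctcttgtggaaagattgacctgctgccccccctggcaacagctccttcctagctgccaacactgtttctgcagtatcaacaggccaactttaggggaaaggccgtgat
Icam1: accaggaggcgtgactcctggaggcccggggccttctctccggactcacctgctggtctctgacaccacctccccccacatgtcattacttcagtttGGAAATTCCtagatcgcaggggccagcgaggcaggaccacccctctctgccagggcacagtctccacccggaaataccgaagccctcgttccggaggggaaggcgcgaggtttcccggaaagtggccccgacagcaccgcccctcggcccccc
Madcam1: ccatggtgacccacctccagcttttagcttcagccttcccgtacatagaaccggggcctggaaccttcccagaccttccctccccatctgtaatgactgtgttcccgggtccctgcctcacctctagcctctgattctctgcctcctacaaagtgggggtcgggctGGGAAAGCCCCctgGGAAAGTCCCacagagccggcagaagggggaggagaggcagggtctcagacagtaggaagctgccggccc

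The Sele window held TATAAA from -49 to -44, counted from the base before the start as -1, and no match to either NF-kB form. The Selp window held none of the 3 motifs. The Icam1 window held GGAAATTCC from -153 to -145, and the Madcam1 window held the longer NF-kB form on the minus strand from -84 to -75, from -83 to -74, which overlaps it, and from -70 to -61. Among 32851 windows of 300 bases in the table, which run from 250 bases before to 50 after each start, 4.79% held the longer NF-kB form, 0.317% held GGAAATTCC and 13.6% held TATAAA. In those 300 bases the Itga4 and Itgb7 windows had no match, and Icam1 also had TATAAA from 14 to 19 after its start. For Sele and Itgb7 this transcript start lies inside the gene record, which begins further upstream, so no match there speaks only of the window searched. These are matches of letters in a window, and an absent match says nothing of binding. Sele and Selp are neighbours on chromosome 1, at 164039614 to 164058487 and 164115264 to 164150026, with 56776 bases between them. The other genes lie on separate chromosomes, Icam1 at chromosome 9, 21015940 to 21028814, Vcam1 at chromosome 3, 116110020 to 116129688, Madcam1 at chromosome 10, 79664559 to 79668542, Selplg at chromosome 5, 113817798 to 113832528, Itga4 at chromosome 2, 79255426 to 79333114, and Itgb7 at chromosome 15, 102215994 to 102233405. All are annotated as protein coding.

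Each library sums to 1000000 TPM, the read depth behind the values is unknown, and 12681 to 14632 genes per library had at least 1 TPM. Transcripts of the mitochondrial genome took 20.1 to 57.8% of TPM, which lowers all other values where their share is high. In all, 3 libraries stood apart for the genes described here, and the values without them stand beside the differences that moved. Leaving them out removes replicates 2 and 3 of ISM012-042 but only replicate 2 of vehicle, so it takes more high values from ISM012-042. Vehicle replicate 2 and ISM012-042 replicate 2 had the highest levels of neutrophil markers, with S100a8, one of these markers, at 12002 and 2994 TPM against 0.508 to 434.8 TPM in the other 16 libraries. ISM012-042 replicate 2 also had the highest endothelial markers, with Cdh5, the endothelial cadherin, at 35.9 TPM and no more than 10.2 TPM elsewhere. ISM012-042 replicate 3 had the highest lymphoid markers, with the B cell gene Ms4a1 at 66.4 TPM, where the next highest library had 11.7 TPM. As to the labelled tissue, all 11 genes of the colon epithelium list were detected, with a summed level of 6177 to 16801 TPM over all libraries. The small intestine list of 7 genes summed to 58.7 to 321.6 TPM. Hoxb13, a homeobox gene of the distal large bowel, ran from 9.05 to 287.9 TPM in sham, 1.52 to 179.3 TPM in vehicle and 0.329 to 219.1 TPM in ISM012-042. Sham replicates 2, 3, 4 and 5 stood at 217.6 to 287.9 TPM, above every vehicle library. The labels do not say which part of the colon was taken, and its part in the group differences was not tested.

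By level, which TPM allows to be compared between genes because it is scaled per length, the genes fell into loose tiers. In sham colon Icam1 stood at 5.56 ± 0.937 TPM (SD, n = 6), Selplg at 4.92 ± 1.86 TPM and Vcam1 at 4.71 ± 1.28 TPM, and the ranges of these 3 overlapped. Itgb7 at 2.55 ± 1.01 TPM, Itga4 at 2.29 ± 0.628 TPM and Madcam1 at 2.11 ± 1.79 TPM also overlapped one another, and the highest Itgb7 and Madcam1 values reached into the range of Vcam1. Selp was lower, at 0.547 ± 0.117 TPM, under every sham value of both integrin chains but inside the range of Madcam1, which began at 0.472 TPM. Sele was the lowest at 0.0548 ± 0.0359 TPM, and its highest sham value of 0.121 TPM lay under the lowest of Selp, 0.407 TPM. Medians over all 18 libraries put Madcam1 ahead of the integrin chains, with Icam1 at 5.95, Selplg at 5.82, Vcam1 at 5.06, Madcam1 at 3.27, Itgb7 at 2.90, Itga4 at 2.32, Selp at 0.757 and Sele at 0.078 TPM. Sele reached 1 TPM in 2 libraries and was listed at 0 in 1, so it fell under the filter of at least 1 TPM in at least 6 libraries, and 7 of the 8 genes entered the fit over all genes.

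Selp, which encodes P-selectin, the fastest of the vessel selectins to reach the cell surface, was the gene whose groups separated most clearly. Its TPM ran from 0.407 through a median of 0.529 to 0.749 in sham, from 0.765 through 1.71 to 13.3 in vehicle, and from 0.537 through 0.910 to 30.7 in ISM012-042. Every vehicle library lay above every sham library, by a narrow gap, while the ISM012-042 libraries ran from inside the sham range to the highest value of all. The log2(TPM + 1) difference of vehicle from sham was 1.14 ± 0.63 (SE), with a Benjamini-Hochberg adjusted p of 0.363 in limma over 14129 genes, so it did not pass 0.05. An exact two-sided permutation test of this gene alone gave p = 0.00216 without adjustment, the smallest that 924 regroupings allow, in a family of 24 such tests (8 genes in 3 comparisons). The limma test shares its estimate of the spread over the 3 groups, and the SD of log2 values was 0.11 in sham, 1.12 in vehicle and 1.69 in ISM012-042. Leaving out vehicle replicate 2 and ISM012-042 replicate 2 gave 0.72 ± 0.21 with an adjusted p of 0.0645 in limma, and leaving out all 3 libraries that stood apart gave the same difference with 0.0691. Across the 12 fits that left out 1 library the exact p for Selp ran from 0.00216 to 0.0216.

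ISM012-042 and vehicle did not differ detectably in Selp, at -0.18 (95% interval -1.50 to 1.14, limma adjusted p = 0.843). It was -0.86 without ISM012-042 replicate 2, 0.23 without vehicle replicate 2 and -0.49 ± 0.24 (limma adjusted p = 0.41) without the 3 libraries that stood apart. This interval holds changes of more than 2-fold on the log2(TPM + 1) scale either way, so it does not show that the groups were alike. Against sham the ISM012-042 difference in Selp was 0.95 ± 0.63 (limma adjusted p = 0.364), with an unadjusted exact permutation p of 0.0433. The difference leaned on ISM012-042 replicate 2: without it the Selp difference was 0.27 and the exact permutation p 0.0671. Leaving out any 1 sham library put the exact p at 0.0909 to 0.173, and leaving out any 1 ISM012-042 library at 0.013 to 0.0671. Both make the groups unequal in size. In vehicle minus sham, where the Selp ranges did not overlap, leaving out a sham library raised the exact p to 0.0173 to 0.0216. Leaving out a vehicle library kept it at 0.00216. The rise came whichever sham library was left out, so it singles out none of them, and its cause was not tested. With the mean level of endothelial markers as a covariate the Selp difference of ISM012-042 from sham turned to -0.67 (limma adjusted p = 0.554). That mean did not overlap between these groups, at 1.95 to 2.50 in sham and 2.62 to 4.61 in ISM012-042 on the log2(TPM + 1) scale. The adjusted value therefore rests on extrapolation.

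Sele encodes E-selectin, which resting endothelium makes little of. Its TPM ran from 0.026 through 0.041 to 0.121 in sham, from 0.086 through 0.136 to 1.28 in vehicle, and from 0 through 0.064 to 2.95 in ISM012-042. Both high values belonged to the libraries with the most neutrophil marker RNA, vehicle replicate 2 and ISM012-042 replicate 2, and sham replicate 5 was the only sham library that reached the vehicle range. The vehicle minus sham difference was 0.29 on the log2(TPM + 1) scale, which understates change at such levels, and the exact two-sided permutation test gave p = 0.0152, unadjusted. Without vehicle replicate 2 the Sele difference was 0.12 and the exact p 0.0216. The exact p rose past 0.05 without sham replicate 1, 2, 3, 4 or 6, to 0.0823, 0.0628, 0.0844, 0.0801 and 0.0823. It was 0.0455 without sham replicate 5, so it rose whichever sham library was left out. Leaving out any 1 vehicle library, which also makes the groups unequal, gave 0.00866 to 0.0216. As for Selp, no single sham library is singled out by the rise, and its cause was not tested. ISM012-042 against vehicle gave 0.03 (exact permutation p = 0.996) and turned to -0.13 (exact p = 0.0238, unadjusted) when the 2 libraries of highest neutrophil markers were left out. With ISM012-042 replicate 3 left out as well, the Sele difference was -0.13 and the exact p 0.0714. The ratio of Sele to Selp within a library was 0.0441 to 0.162 in sham, 0.0522 to 0.148 in vehicle and 0 to 0.106 in ISM012-042, so the ranges overlapped while the levels of both genes varied.

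**Figure D1:**
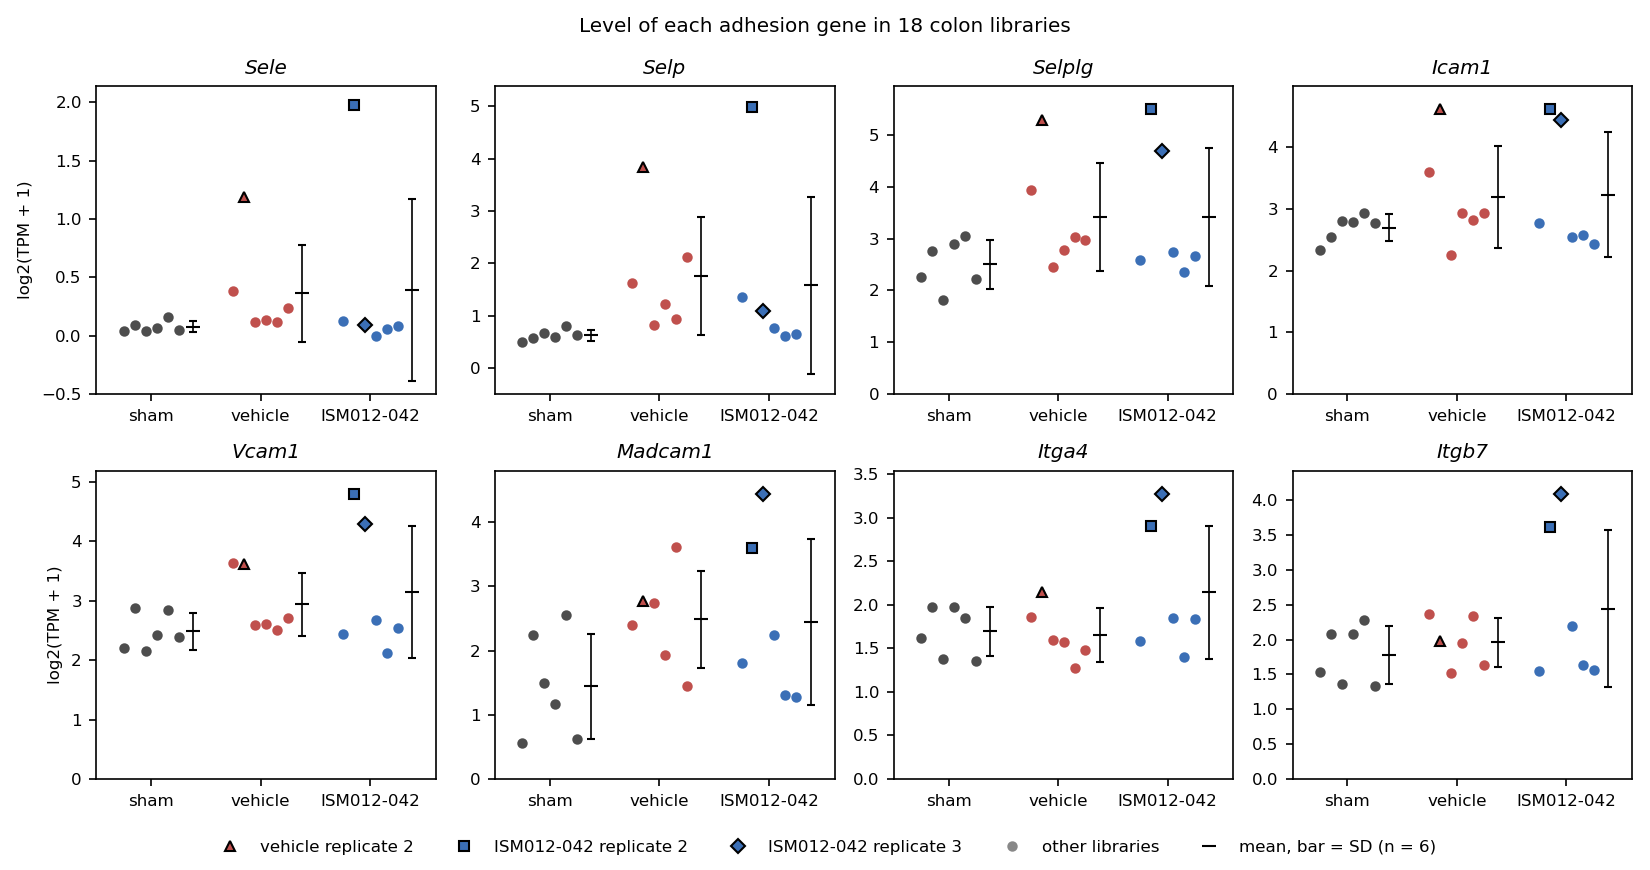
Level of each of the 8 genes as log2(TPM + 1) on the y axes, 1 point per library, with the 3 groups on the x axes, the mean and SD of each group (n = 6) beside its points, and 3 libraries drawn with their own symbols. The triangle (vehicle replicate 2) and the square (ISM012-042 replicate 2) are the highest of their groups for Sele and Selp, and the diamond (ISM012-042 replicate 3) is the highest of all libraries for Madcam1, Itga4 and Itgb7.

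Selplg encodes PSGL-1, the ligand on leukocytes that selectins bind. Its TPM ran from 2.53 through 4.77 to 7.34 in sham, from 4.49 through 7.03 to 38.2 in vehicle, and from 4.13 through 5.498 to 44.4 in ISM012-042. Vehicle replicates 1 and 2 and ISM012-042 replicates 2 and 3, at 14.3, 38.2, 44.4 and 24.8 TPM, lay above all sham libraries, and the other 8 colitis libraries lay inside the sham range. The difference of vehicle from sham was 0.91 ± 0.54 (limma adjusted p = 0.405), that of ISM012-042 from sham 0.92 ± 0.54 (limma adjusted p = 0.319) and that of ISM012-042 from vehicle 0.01 (95% interval -1.13 to 1.15, limma adjusted p = 0.991). Vehicle minus sham for Selplg was 0.53 without vehicle replicate 2, and ISM012-042 minus sham was 0.50 without ISM012-042 replicate 2 and 0.082 without the 3 libraries that stood apart. Without those 3, ISM012-042 minus vehicle for Selplg was -0.45 ± 0.28 (limma adjusted p = 0.423).

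Icam1 and Vcam1 encode the immunoglobulin-type receptors on which integrins arrest leukocytes. Icam1 ran from 4.05 through 5.89 to 6.68 TPM in sham, from 3.75 through 6.67 to 23.7 TPM in vehicle, and from 4.42 through 5.41 to 23.5 TPM in ISM012-042. Vcam1 ran from 3.43 through 4.30 to 6.36 TPM in sham, from 4.70 through 5.30 to 11.4 TPM in vehicle, and from 3.34 through 5.12 to 27.0 TPM in ISM012-042. For both genes the same 4 libraries, vehicle replicates 1 and 2 and ISM012-042 replicates 2 and 3, exceeded every sham value, and the remaining colitis libraries did not. The vehicle minus sham differences were 0.49 ± 0.41 for Icam1 and 0.46 ± 0.39 for Vcam1 (limma adjusted p = 0.571 and 0.586). Without vehicle replicate 2 they were 0.21 for Icam1 and 0.33 for Vcam1 (limma adjusted p = 0.829 and 0.732). ISM012-042 minus vehicle was 0.04 for Icam1 (95% interval -0.82 to 0.89) and 0.20 for Vcam1 (-0.62 to 1.03), with limma adjusted p of 0.953 and 0.719. Without the 3 libraries that stood apart these became -0.33 ± 0.22 for Icam1 and -0.36 ± 0.24 for Vcam1 (limma adjusted p = 0.432 and 0.428), so this small difference changed sign without those libraries. That exclusion was uneven: it dropped replicates 2 and 3 of ISM012-042 but only replicate 2 of vehicle. Vehicle replicate 1, at 11.1 TPM of Icam1 and 11.4 TPM of Vcam1, was kept. Against sham, ISM012-042 stood at 0.53 for Icam1 and 0.66 for Vcam1 with all libraries (limma adjusted p = 0.427 and 0.319), and at -0.12 and -0.04 without the 3.

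Madcam1, the gut addressin, was the most variable of the 8 genes in sham colon, with an SD of log2 values of 0.82 that exceeded the SD of 96.3% of tested genes there. Its TPM ran from 0.472 through 1.54 to 4.84 in sham, from 1.74 through 4.98 to 11.2 in vehicle, and from 1.43 through 3.11 to 20.8 in ISM012-042. Sham replicates 2 and 5 reached 3.73 and 4.84 TPM, inside the vehicle range, and the highest values were ISM012-042 replicate 3 at 20.8 TPM, vehicle replicate 5 at 11.2 TPM and ISM012-042 replicate 2 at 11.1 TPM. The vehicle minus sham difference was 1.05 ± 0.53 (limma adjusted p = 0.308), and the exact two-sided permutation p of 0.0498, unadjusted, exceeded 0.05 when sham replicate 1, 3, 4 or 6 or vehicle replicate 1, 2, 3 or 5 was left out, up to 0.0974. Leaving out any other library of these groups gave an exact p of 0.0216 to 0.0476. Each omission makes the groups unequal in size. ISM012-042 minus vehicle was -0.04 (95% interval -1.15 to 1.07, limma adjusted p = 0.958), and ISM012-042 minus sham was 1.004 ± 0.53 (limma adjusted p = 0.274). Without the 3 libraries that stood apart the Madcam1 differences were 0.99 ± 0.41 for vehicle minus sham, -0.77 ± 0.45 for ISM012-042 minus vehicle and 0.22 ± 0.43 for ISM012-042 minus sham (limma adjusted p = 0.19, 0.414 and 0.867). Leaving out ISM012-042 replicate 3 alone put the Madcam1 difference of ISM012-042 from sham at 0.60. Glycam1, a sulfated selectin ligand of high endothelial venules, was likewise uneven between libraries of 1 group, from 0 to 39.8 TPM in sham and from 0 to 38.7 TPM in vehicle, and highest in ISM012-042 replicate 3 at 118.5 TPM.

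Itga4 and Itgb7 encode the chains that pair into the leukocyte receptor for MAdCAM-1, and Itga4 also pairs with the Itgb1 chain to bind VCAM-1. Itga4 ran from 1.56 through 2.34 to 2.94 TPM in sham, from 1.42 through 2.00 to 3.44 TPM in vehicle, and from 1.65 through 2.58 to 8.69 TPM in ISM012-042. Itgb7 ran from 1.52 through 2.55 to 3.87 TPM in sham, from 1.86 through 2.90 to 4.15 TPM in vehicle, and from 1.93 through 2.85 to 16.1 TPM in ISM012-042. Vehicle and sham overlapped almost fully for both chains, and only ISM012-042 replicates 2 and 3 lay well above the rest, at 6.49 and 8.69 TPM of Itga4 and 11.3 and 16.1 TPM of Itgb7. Vehicle differed from sham by -0.04 for Itga4 (95% interval -0.62 to 0.54, limma adjusted p = 0.962) and by 0.19 for Itgb7 (-0.62 to 0.997, limma adjusted p = 0.854). ISM012-042 minus vehicle was 0.49 ± 0.28 for Itga4 and 0.48 ± 0.39 for Itgb7 (limma adjusted p = 0.301 and 0.417), and ISM012-042 minus sham was 0.45 ± 0.28 and 0.67 ± 0.39 (limma adjusted p = 0.338 and 0.311). Without the 3 libraries that stood apart, the ISM012-042 minus sham differences were -0.03 for Itga4 and -0.04 for Itgb7.

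Over the set, 0 of the 7 genes tested passed an adjusted p of 0.05 in limma in any of the 3 comparisons, and 0 of 7 had an unadjusted limma p under 0.05. In vehicle against sham the background was 630 of 14129 genes at the adjusted threshold (4.46%), 46 higher and 584 lower, and 18.1% at an unadjusted p under 0.05. In ISM012-042 against vehicle it was 0 of 14129 (0%), with 19% at an unadjusted limma p under 0.05, 2670 genes higher and 18 lower. Among the differences of all tested genes there, Selp stood at percentile 2.7, Madcam1 at 6, Selplg at 8.4, Icam1 at 10.2 and Vcam1 at 31. Itgb7 stood at percentile 87.6 and Itga4 at 88.2. In ISM012-042 against sham it was 200 of 14129 (1.42%), 77 higher and 123 lower, and 20.8% unadjusted. The median difference of the 7 genes was 0.49 in vehicle against sham, 0.04 in ISM012-042 against vehicle and 0.67 in ISM012-042 against sham, beside medians over all genes tested of -0.07, 0.30 and 0.21. The comparisons share libraries (sham in the first and last, vehicle in the first and second), so their values are not independent of one another.

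Groups whose ranges did not overlap were seen once, for Selp, higher in vehicle than in sham. That call was met by 0.687% of tested genes in the same direction and 1.91% in the other. No other gene of the set separated vehicle from sham, and none separated ISM012-042 from vehicle (0.651% of all tested genes higher, 0.0212% lower) or ISM012-042 from sham (3.8% higher, 1.05% lower). Scaling the libraries by the median ratio moved the median of all genes from -0.07, 0.30 and 0.21 to 0.02, 0.01 and 0.02, and under it ISM012-042 minus vehicle for Selplg, Icam1 and Vcam1 was -0.29, -0.26 and -0.09.

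**Figure D2:**
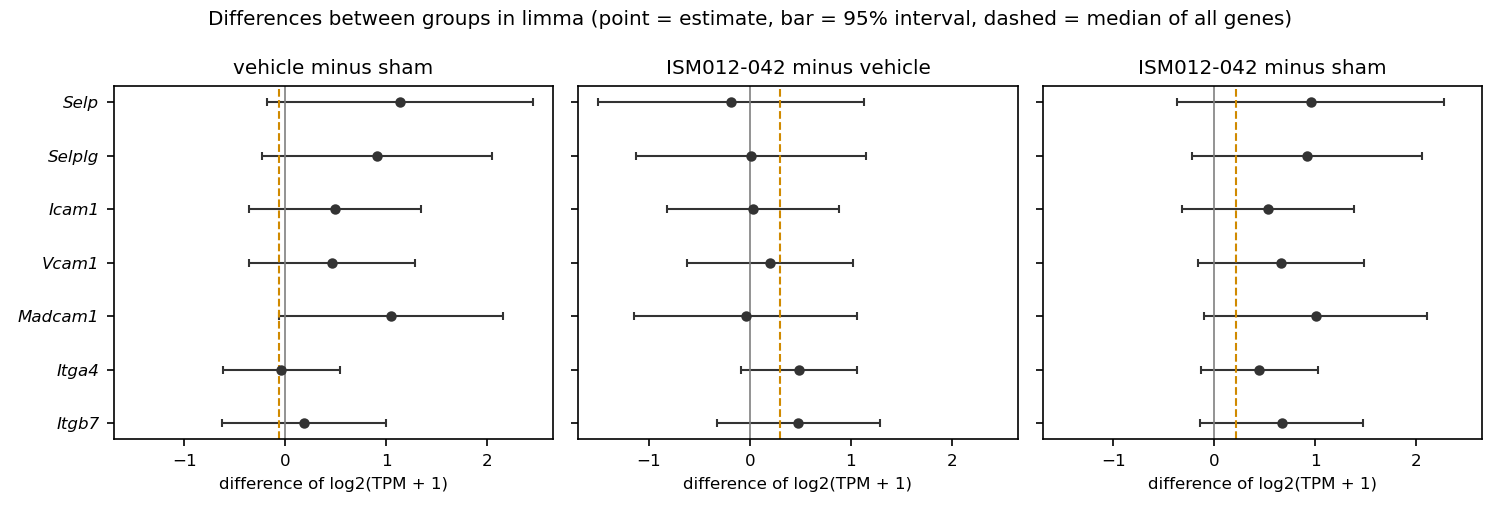
Difference between groups for the 7 genes tested, as log2(TPM + 1) on the x axes with 1 panel per comparison and genes on the y axis, where points are limma estimates, bars 95% intervals and dashed lines the median of all 14129 genes. Every interval includes 0, and the widest belong to Selp.

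The libraries that stood apart differed in which of the 8 genes they raised. In vehicle replicate 2 the level over the median of the other 5 vehicle libraries was 13.5-fold for Sele, 10.005-fold for Selp, 5.55-fold for Selplg and 3.55-fold for Icam1, but 1.37-fold for Madcam1 and 1.03-fold for Itgb7. In ISM012-042 replicate 2 all 8 genes were among the 3 highest libraries, from 48.3-fold for Sele and 43.4-fold for Selp to 2.54-fold for Itga4. In ISM012-042 replicate 3 the order was the other way, with 8.37-fold for Madcam1, 7.59-fold for Itgb7, 4.66-fold for Selplg and 4.17-fold for Icam1, beside 1.10-fold for Sele and 1.57-fold for Selp. Each of these is a single library, with no test.

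**Figure D3:**
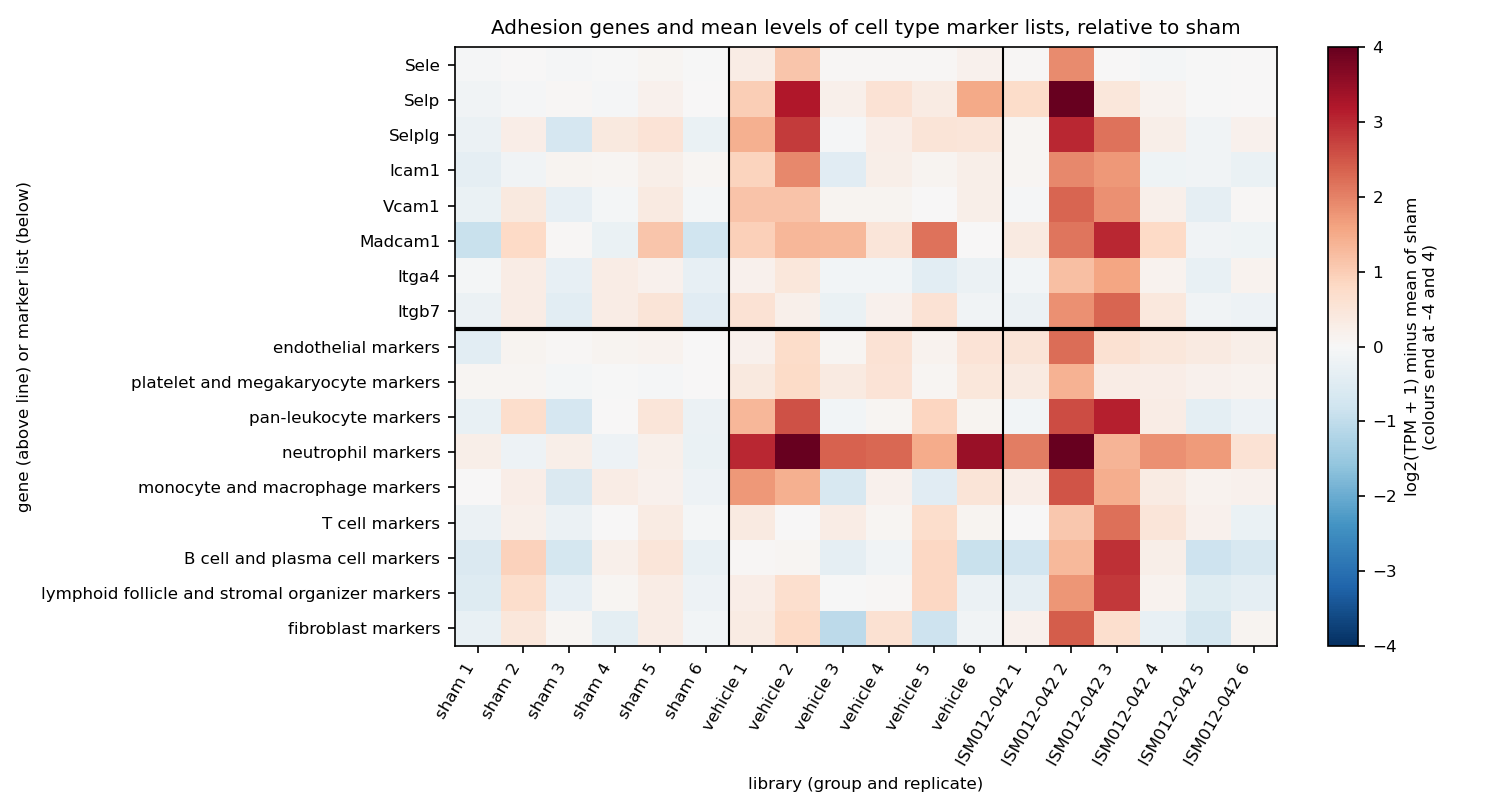
The 8 genes (above the line) and mean levels of marker lists (below) in each library, as log2(TPM + 1) minus the sham mean, with libraries on the x axis grouped as sham, vehicle and ISM012-042 and colours that saturate at the ends of the scale. Vehicle replicate 2 is high for selectins and neutrophil markers, ISM012-042 replicate 3 for Madcam1, integrin chains and B cell and follicle markers, and ISM012-042 replicate 2 for all 8 genes.

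Markers of the cells that carry these molecules moved in the same libraries. The summed level of the 14 endothelial markers, all detected in every library, was 49.4 to 84.4 TPM in sham, 81.8 to 146.6 TPM in vehicle and 91.3 to 477.5 TPM in ISM012-042. The 8 pan-leukocyte markers, also detected in every library, summed to 45.2 to 133.5, 72.0 to 572.5 and 57.3 to 803.6 TPM. The 12 neutrophil markers summed to 9.11 to 28.3, 195.1 to 28059 and 48.0 to 7282 TPM, with Cxcr2, Mmp8, Ngp and Stfa2l1 at 0 in 3, 5, 7 and 5 libraries and Ltf and Trem1 at 0 in 1 each. The 9 platelet and megakaryocyte markers summed to 16.6 to 26.5, 17.99 to 116.3 and 23.2 to 350.9 TPM. Of these, Pf4, Gp1bb, Itgb3 and Itga2b were at 0 in no library, Ppbp in 7, and Gp9, Gp1ba and Treml1 in 11, 10 and 12 of 18. Of the 5 platelet markers tested 0 passed in vehicle against sham, with Gp1bb at 1.21 ± 0.43 and Ppbp at 1.73 ± 0.81 (limma adjusted p = 0.12 and 0.271). The follicle and stromal organizer list summed to 45.7 to 93.2, 68.4 to 129.0 and 46.2 to 507.2 TPM. The part of these cell types in the levels of the adhesion genes was not tested, and in bulk tissue fewer cells of a type and less RNA per cell cannot be told apart.

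Levels set against 1 gene of a cell type gave a second view, though which cells made the adhesion RNA was not tested. The ratio of Selp to Cdh5 was 0.121 to 0.194 in sham with a median of 0.169, 0.174 to 1.30 in vehicle with a median of 0.344, and 0.0817 to 0.856 in ISM012-042 with a median of 0.143. In 5 of 6 vehicle libraries it exceeded every sham library, and in ISM012-042 replicates 4 and 5 it lay under every sham library while replicates 1 and 2 lay above. The ratio of Icam1 to Cdh5 was 1.24 to 1.93 in sham with a median of 1.73, 0.852 to 2.57 in vehicle with a median of 1.32, and 0.655 to 3.04 in ISM012-042 with a median of 0.826. The ratio of Vcam1 to Cdh5 was 0.983 to 1.73, 0.755 to 2.65 and 0.509 to 2.75, with medians of 1.43, 1.13 and 0.757. In 5 of 6 ISM012-042 libraries Icam1 over Cdh5 lay under every sham library, and replicate 3 lay above all of them. Cdh5 itself was at least 4.68 TPM in every ISM012-042 library and at most 4.34 TPM in sham, so a low ratio need not mean low Icam1 or Vcam1. Of all tested genes 3.8% were likewise higher in ISM012-042 than in sham without overlap. For Selplg the ratio to Ptprc, which encodes the leukocyte antigen CD45, was 0.395 to 0.792 in sham, 0.721 to 1.03 in vehicle and 0.325 to 1.002 in ISM012-042. By this ratio vehicle replicate 6, with 6.89 TPM of Selplg, stood highest, and ISM012-042 replicate 3, with 76.2 TPM of Ptprc, stood lowest. For Itga4 the ratio to Ptprc was 0.201 to 0.502 in sham, 0.0792 to 0.323 in vehicle and 0.114 to 0.344 in ISM012-042, lowest in vehicle replicate 2, where Ptprc stood at 43.4 TPM. The ratio of Itgb7 to Itga4 was 0.912 to 1.48 in sham, 0.857 to 2.86 in vehicle and 0.768 to 1.85 in ISM012-042. All these ratios overlap between groups and are given without a test.

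**Figure D4:**
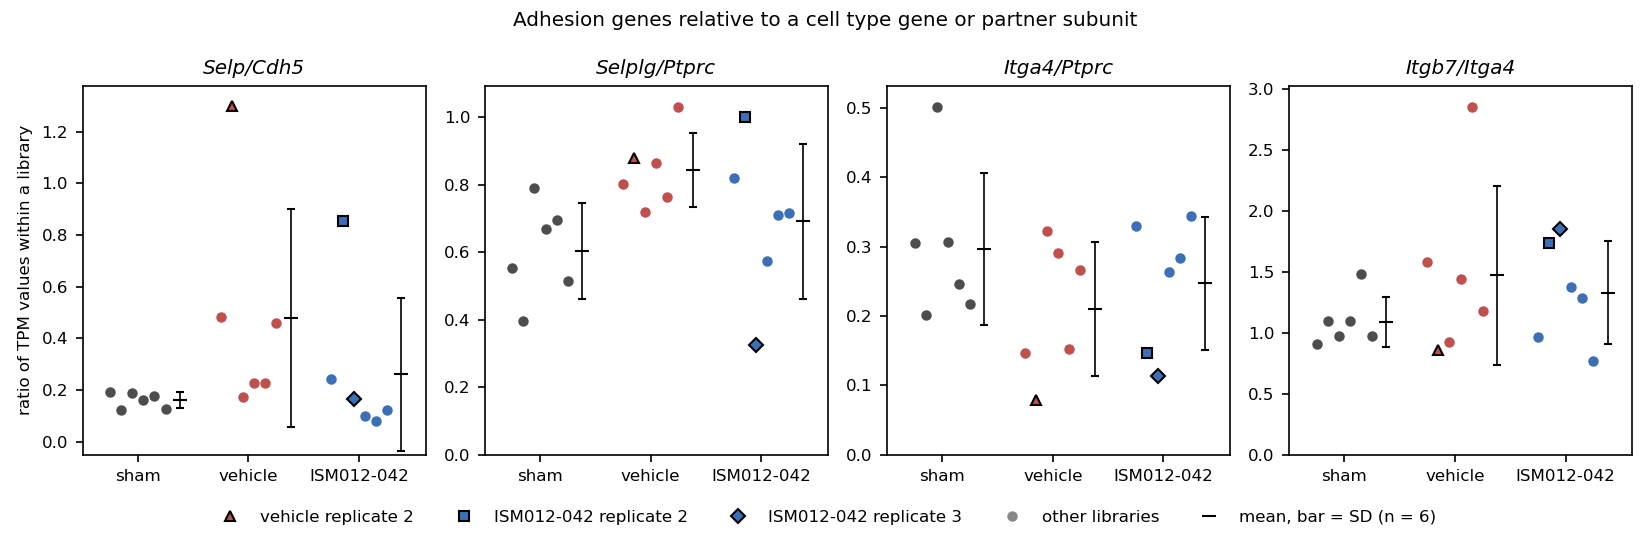
Ratio of TPM values within each library on the y axes for Selp over Cdh5, Selplg over Ptprc, Itga4 over Ptprc and Itgb7 over Itga4, 1 point per library, with the group mean and SD (n = 6). Vehicle replicate 2 (triangle) is the highest for Selp over Cdh5, at 1.30, and the lowest for Itga4 over Ptprc, at 0.0792.

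Other genes of leukocyte trafficking, in lists chosen with earlier results of these data known, showed few calls. In vehicle against sham 0 of 15 tested selectin ligand and glycosylation genes passed in limma (median -0.01, background 4.46%), and Cd44, a further selectin ligand, stood at 1.03 ± 0.39 (limma adjusted p = 0.151). The count was 0 of 15 for junctional and other vessel adhesion genes (median 0.20), 0 of 14 for leukocyte integrins and their activators (median 0.22) and 0 of 9 for homing chemokines and receptors (median 0.15). Below 0 stood Ccl28, a mucosal chemokine, at -1.04 ± 0.36, St3gal6, a sialyltransferase, at -1.18 ± 0.46, and F11r, a junction molecule, at -0.45 ± 0.16 (limma adjusted p = 0.117, 0.17 and 0.138). Itgam and Itgb2, the chains of the neutrophil integrin Mac-1 that binds ICAM-1, stood at 1.51 ± 0.68 and 1.19 ± 0.61 (limma adjusted p = 0.25 and 0.321). Cxcl13, a B cell attractant of follicles, stood at 1.41 ± 0.50 (limma adjusted p = 0.123).

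Among 16 tested inducers of vessel adhesion molecules and NF-kB genes, 0 rose and 1 fell in vehicle against sham, where 4.46% of all tested genes passed. The gene that fell was Irf1, an interferon-response factor that also acts on the Vcam1 promoter, at -1.05 ± 0.29 (limma adjusted p = 0.0452). The cytokine genes Il1b at 3.56 ± 1.04 and Il1a at 2.68 ± 0.84 did not pass (limma adjusted p = 0.0611 and 0.08), and Tnf stood at 0.87 ± 0.60 (limma adjusted p = 0.479). Il1b was 1.96 to 4.24 TPM in sham and 9.14 to 1564 TPM in vehicle, so the groups did not overlap. Of all tested genes 0.687% separated these groups in that direction. The highest library for Il1b was again vehicle replicate 2. Of 14 endothelial markers 0 passed in vehicle against sham although all 14 differences were above 0 (median 0.42), and of 10 tested neutrophil markers 4 rose (4.46% of all tested genes passed, 46 of 14129 as higher), with S100a9 at 6.66 ± 1.19 and S100a8 at 6.63 ± 1.20 (limma adjusted p = 0.00605 and 0.00616).

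In ISM012-042 against vehicle 0 genes passed in any of the 20 lists, as in the whole table. The closest trafficking gene was Cd99l2, a junction molecule of transmigration, at 0.55 ± 0.15 (limma adjusted p = 0.233), and Il1a stood at -1.93 ± 0.84 (limma adjusted p = 0.25). In ISM012-042 against sham 0 genes of the 20 lists passed either. The endothelial markers had a median of 0.71 there beside 0.21 over all genes, with 12 of 14 at an unadjusted limma p under 0.05 (background 20.8%), and Esam, an endothelial junction molecule, stood at 1.01 ± 0.27 (limma adjusted p = 0.0712). In the same comparison 6 of 6 mesothelial and 7 of 8 adipocyte marker differences were above 0, and 0 passed. The 6 mesothelial markers had a median of 0.95, with 4 of 6 at an unadjusted limma p under 0.05, and summed to 2247 to 3214 TPM in sham and 2478 to 2965 TPM in ISM012-042. That sum is almost wholly Krt19, at 1560 to 3744 TPM over all libraries, while no other gene of the list exceeded 33.6 TPM. The 8 adipocyte markers had a median of 2.82, with 2 of 8 at an unadjusted limma p under 0.05, and summed to 103.1 to 3562 TPM in sham and 274.5 to 4455 TPM in ISM012-042. Their part in the endothelial values was not tested.

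The genes whose log2(TPM + 1) profiles were most like each of the 8 were read from Pearson's r over the 18 libraries, which share group differences and the 3 libraries that stood apart, so r is also given over the other 15. For Sele the nearest was Selp (0.964, and 0.764 over 15), followed by Ndufa4l2 and Ptx3. For Selp they were Ptx3 (0.981, and 0.893 over 15), Ppbp and Adamts4. Selplg was most like Itgb2 (0.987, and 0.946 over 15), Pstpip1 and Spi1. Icam1 was most like Bin2 (0.967, and 0.770 over 15), D16Ertd472e and Spi1, and Vcam1 like Tgfb1 (0.963, and 0.825 over 15), Cd84 and Arl4c. Madcam1 had the least close neighbours, Klhl6 (0.914, and 0.835 over 15), Ikzf1 and Pax5. Itga4 was most like Slc44a2 (0.974, and 0.872 over 15), Wdfy4 and Plcb2, and Itgb7 like Spn (0.972, and 0.896 over 15), Ptpn7 and Myo1g.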

How the data were processed

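Total RNA of mouse colon was extracted and reverse transcribed, per the labels' protocols. The authors deposited TPM for 35976 gene rows in 18 libraries, and the submitters' processing notes name DRAGEN 4.0.3 and the build mm10. Which aligner, counter, annotation or strand setting was used is not given in the sources used here. All 18 columns matched a sample by name, with 0 left over, and no libraries were identical (highest correlation 0.986). The table held 27 symbols converted to dates and 4 rows with duplicated symbols, none of them genes described here.

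Groups came from the titles. Genes with at least 1 TPM in at least 6 libraries (14129) were compared on log2(TPM + 1) in limma 3.58.1 (R 4.3.3), 18 libraries in 1 fit, with trend and robust empirical Bayes and Benjamini-Hochberg adjustment at 0.05 over all genes. The code was tested on simulated data. Sele, under the filter, had an exact two-sided permutation test, which was later run for all 8 genes, unadjusted.

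The 8 genes, the 20 lists (211 genes, 3 absent) and the libraries left out were chosen with earlier results of these data known. From each list the text names up to 3 genes of smallest unadjusted p, and for each of the 8 the 3 genes of highest correlation, leaving out predicted genes and receptor segments. Genes named beyond this rule (Glycam1, Tnf, Hoxb13, Pf4 and the marker genes of single libraries) were chosen after their values were seen. Alternatives changed the pseudocount, filter, scaling, fit, covariates and libraries.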

Additional observations from a re-analysis of the deposited data

Results flagged for a closer look

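In 3 of the 24 sets of 6 libraries checked (8 genes in 3 groups), 1 library lay far from the other 5. The gap to the nearest library, divided by the range of the group, both taken on log2(TPM + 1), exceeded Dixon's critical value of 0.625, which chance exceeds in about 1 in 20 groups. Sele was 1.279 TPM in vehicle replicate 2, where the other 5 vehicle libraries had at most 0.308 TPM. Sele was 2.945 TPM in ISM012-042 replicate 2, where the other 5 had at most 0.089 TPM. Selp was 30.709 TPM in ISM012-042 replicate 2, where the other 5 had at most 1.573 TPM. Both libraries had the highest neutrophil markers of the study, and the part of these cells in the selectin values was not tested.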

How the results depend on the processing

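No gene of the set passed an adjusted p of 0.05 under any alternative run in limma, so what moved was the sign of several differences and the count over all genes; the causes were not tested. Depth is unknown, so the counting error behind Sele and Selp is too. The alternatives without 3 libraries, with Hoxb13 as covariate and with exact tests were chosen after seeing the data, and the exact tests put Selp in vehicle minus sham and in ISM012-042 minus sham and Madcam1 in vehicle minus sham under 0.05, unadjusted. Sele in vehicle minus sham was 0.29 with an adjusted p of 0.701 in limma when no filter on low values was used. Selp, Madcam1, Selplg and Sele in vehicle minus sham stayed above 0 throughout. Their ranges were 0.30 to 1.81, 0.42 to 1.497, 0.22 to 1.46 and 0.075 to 1.07.

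Genes passing in vehicle minus sham numbered 630, against 1515 with median-ratio scaling (511 higher), 1469 with quantile normalization (541 higher), 1332 with mitochondrial genes left out (421 higher), 361 with only the groups compared in the fit and 1011 with the pan-leukocyte score as covariate, and 336 to 964 without 1 library. In ISM012-042 minus sham they numbered 200, against 772 with median-ratio scaling (144 higher), 803 with quantile normalization (257 higher), 1132 with mitochondrial genes left out (745 higher), 709 with only the groups compared, 3260 with array weights (2322 higher), 34 with the endothelial, 377 with the pan-leukocyte and 1379 with the Hoxb13 covariate (1108 higher), and 76 to 227 without 1 library. With a replicate block the count was 109. Replicate numbers did not pair the samples: correlations of same-numbered deviations ran from -0.380 to 0.609, and the replicate block made no gene of the set pass. In ISM012-042 minus vehicle the count was 0 throughout.

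In ISM012-042 minus vehicle the sign turned for Selplg, Icam1 and Vcam1 with median-ratio scaling (-0.29, -0.26 and -0.088), quantile normalization (-0.27, -0.26 and -0.082), array weights (-0.71, -0.59 and -0.34), the endothelial covariate (-0.52, -0.35 and -0.18) and without 3 libraries (-0.45, -0.33 and -0.36). It turned for Selplg and Icam1 with mitochondrial genes left out (-0.14 and -0.11), the pan-leukocyte covariate (-0.068 and -0.020) and Hoxb13 (-0.20 and -0.11). For Selplg alone it turned with pseudocount 0.1 (-0.0076) and without both libraries numbered 2 (-0.032). Sele turned with pseudocount 0.1 (-0.38), median-ratio scaling (-0.034), mitochondrial genes left out (-0.031), without both libraries numbered 2 (-0.13) and without 3 (-0.13). Selp and Madcam1 turned with pseudocount 5 (0.018 and 0.049), and Itgb7 without 3 libraries (-0.22).

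In ISM012-042 minus sham the endothelial covariate gave -0.67 for Selp, -0.17 for Selplg, -0.28 for Icam1 and -0.13 for Vcam1, and the pan-leukocyte covariate -0.027 for Icam1. The values with the endothelial covariate rest on extrapolation, because its range did not overlap between these groups. Without 3 libraries Icam1, Vcam1, Itga4, Itgb7 and Sele were -0.12, -0.037, -0.027, -0.039 and -0.010, and without both libraries numbered 2 Sele was -0.0049. In vehicle minus sham the pan-leukocyte covariate gave -0.0069 for Icam1, -0.033 for Vcam1 and -0.27 for Itgb7. Itgb7 was -0.11 with the endothelial covariate and -0.0001 with array weights. Itga4 was 0.031 with median-ratio scaling, 0.011 with quantile normalization, 0.035 with mitochondrial genes left out and 0.25 with Hoxb13.

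Leaving out 1 library gave, in ISM012-042 minus vehicle, -0.86 to 0.23 for Selp, -0.44 to 0.19 for Madcam1, -0.41 to 0.39 for Selplg, -0.24 to 0.32 for Icam1, -0.13 to 0.41 for Vcam1 and -0.29 to 0.19 for Sele. It gave -0.0049 to 0.39 for Sele in ISM012-042 minus sham, and -0.14 to 0.036 for Itga4 and 0.12 to 0.34 for Sele in vehicle minus sham. A filter of 5 TPM left 3 of the 8 tested.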
